A study of Mus musculus with 21 samples.

Results

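The circadian clock genes described here are 10 genes of the 54123 measured: Arntl, Clock, Per1, Per2, Per3, Cry1, Nr1d1, Nr1d2, Dbp and Tef. They were chosen by their place in the clock, and Nr1d1 was chosen because its measured values differed between these libraries, so the values of Nr1d1 are given as a description with no test and the counts of tested genes are over the other 9. RNA was sequenced from 21 libraries of adult male C57BL/6 wild-type mice, taken 24 hours after surgery. Mice underwent either a sham operation or clamping of both renal pedicles followed by reperfusion, which causes renal ischemia-reperfusion injury (IRI). Before surgery they either received remote ischemic preconditioning (RIPC), in which a cuff around a hind limb interrupts its blood flow in cycles, or did not (control). From each arm polymorphonuclear neutrophils (PMNs), labelled as blood neutrophils, and renal tubular epithelial cells (TECs), which the study isolated with beads against prominin-1, were sequenced.

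This gave 8 groups. In PMNs there were 2 sham control, 3 sham RIPC, 2 IRI control and 3 IRI RIPC libraries. In TECs there were 3 sham control, 3 sham RIPC, 2 IRI control and 3 IRI RIPC libraries. The time of day of surgery or sampling is not given in the sources used here. The study calls the libraries biological replicates, and the labels do not tie them to single animals, so it is not known here whether animals were pooled. Estimated reads assigned to genes were 20881334 to 30507235 per PMN library and 21479605 to 51624602 per TEC library. Each library was deposited as 2 files that held nearly the same estimates, so a summed read number appears to count each sequenced fragment about 2 times, and a count of 0 was taken to allow up to 6 summed reads (3 in each file). Levels are given as summed reads and as reads scaled to library size (CPM), and all intervals implied by reads cover counting error only.

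The clock runs in nearly every cell as a feedback loop of transcription and repression. ARNTL (BMAL1) and CLOCK bind E-boxes together and switch on the Period and Cryptochrome genes, whose proteins return to the nucleus and inhibit ARNTL and CLOCK. A second loop runs through the nuclear receptors encoded by Nr1d1 and Nr1d2 (REV-ERB alpha and beta), which repress Arntl at elements shared with ROR receptors. DBP and TEF are output factors that bind D-boxes and carry the rhythm to metabolic genes. In the kidney the clock is known for its part in the daily rhythm of transport, and in neutrophils for the daily rhythm of their ageing in blood, so that a level of any of these genes depends on the hour at which tissue is taken.

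The upstream sequences of the members that the results below turn on, and of some others with a listed element, are shown first. They make plain which of the letters listed next each of these genes carries before its start. They are the 250 bases before the RefSeq start (GRCm38.p6), written 5′ to 3′ on the strand of the gene, with capitals marking any match to an E-box (CACGTG), an E-box-like site (CACGTT, reverse AACGTG), a D-box (TTATGTAA, reverse TTACATAA, or TTACGTAA) or an AGGTCA half-site of the ROR element (reverse TGACCT).
Cry1 (chr10:85185055-85185304, minus strand): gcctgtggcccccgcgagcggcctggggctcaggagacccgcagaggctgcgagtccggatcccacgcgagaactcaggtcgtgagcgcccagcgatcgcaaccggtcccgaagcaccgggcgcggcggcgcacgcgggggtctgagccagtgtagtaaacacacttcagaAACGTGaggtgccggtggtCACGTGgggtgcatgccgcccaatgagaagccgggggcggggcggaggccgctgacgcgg
Per1 (chr11:69098699-69098948, plus strand): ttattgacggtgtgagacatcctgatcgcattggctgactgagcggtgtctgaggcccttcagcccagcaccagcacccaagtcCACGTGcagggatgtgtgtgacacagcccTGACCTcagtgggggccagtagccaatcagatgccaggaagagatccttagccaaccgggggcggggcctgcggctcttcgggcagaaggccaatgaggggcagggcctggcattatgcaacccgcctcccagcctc
Per3 (chr4:151044666-151044915, minus strand): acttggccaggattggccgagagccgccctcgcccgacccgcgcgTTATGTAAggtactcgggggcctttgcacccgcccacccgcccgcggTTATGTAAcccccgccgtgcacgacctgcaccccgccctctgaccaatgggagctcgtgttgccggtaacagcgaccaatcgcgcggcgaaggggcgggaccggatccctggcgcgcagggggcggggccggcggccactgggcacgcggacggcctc
Nr1d1 (chr11:98775378-98775627, minus strand): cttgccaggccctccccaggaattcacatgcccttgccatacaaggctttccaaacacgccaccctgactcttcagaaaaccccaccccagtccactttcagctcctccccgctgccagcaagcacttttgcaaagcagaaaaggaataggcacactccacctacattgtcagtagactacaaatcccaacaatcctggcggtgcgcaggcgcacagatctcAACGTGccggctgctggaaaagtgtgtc
Nr1d2 (chr14:18239107-18239356, minus strand): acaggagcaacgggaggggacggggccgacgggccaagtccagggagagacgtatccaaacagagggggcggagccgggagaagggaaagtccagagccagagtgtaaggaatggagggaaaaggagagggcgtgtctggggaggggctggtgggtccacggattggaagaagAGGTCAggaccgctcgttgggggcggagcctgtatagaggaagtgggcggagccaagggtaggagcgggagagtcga
Tef (chr15:81811164-81811413, plus strand): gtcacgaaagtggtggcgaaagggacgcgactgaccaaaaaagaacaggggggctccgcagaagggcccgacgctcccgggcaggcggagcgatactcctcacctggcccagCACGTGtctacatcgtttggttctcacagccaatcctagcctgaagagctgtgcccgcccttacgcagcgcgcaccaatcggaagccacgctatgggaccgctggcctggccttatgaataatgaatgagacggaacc
Over 32851 such windows of all genes, 6.02% held the E-box, 3.85% the E-box-like site, 0.931% the D-box and 14.0% the half-site. Cry1 carried an E-box that begins 60 bases before the start and an E-box-like site 79 bases before it. The first window of Per1 held an E-box 166 bases and a half-site 137 bases before the start, while the other held no match. The downstream start of Tef had an E-box at 138 bases, and its upstream start, whose window is not printed, one at 127 bases. All 250 bases of that unprinted window are annotated as exon, so its E-box lies in transcribed sequence. Per3 held D-boxes at 205 and 158 bases, Nr1d1 an E-box-like site at 28 bases, and Nr1d2 a half-site at 77 bases. Of the members, 9 had an entry, with 14 windows. A downstream start of Clock had a half-site at 119 bases. The windows of Dbp and Arntl held no exact match to these letters, and Per2 had no entry. Sites outside the windows, such as those after a start, and sites with variant letters were not searched for any gene. A match is a description of the letters and says nothing of binding.

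Compared per length, the members stood at low levels, and each cell type had a different leading gene. In TPM, the deposited level adjusted for transcript length, Per1, a light- and glucocorticoid-responsive repressor, led in PMNs with 13.6 ± 9.20 (mean ± SD, n = 10), ranging from 4.08 to 32.5. Nr1d1 followed at 5.30 ± 5.92 and Cry1 at 3.17 ± 4.12 TPM, and the other 7 members had means of 0.736 (Per3) to 2.36 TPM (Nr1d2) with SDs larger than these means. In TECs Nr1d1 led with 32.3 ± 21.2 TPM (n = 11), ranging from 0.143 to 54.8. Tef came next with 7.24 ± 7.00 and Dbp with 4.37 ± 5.09 TPM, and Cry1 was lowest with 0.815 ± 1.47 TPM. Apart from Nr1d1 and Tef in TECs, neighbours in either order differed by less than the larger of their SDs.

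**Figure D1:**
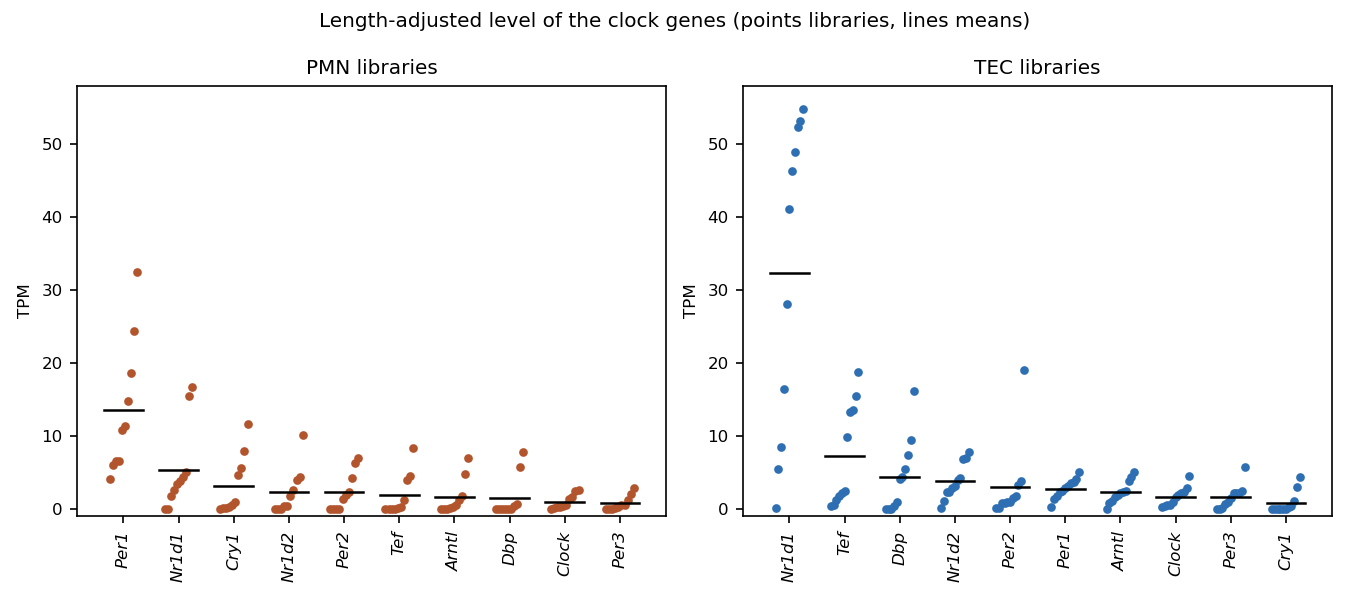
Level of each clock gene in TPM (vertical axis), which is adjusted for length, in the 10 PMN libraries (left) and the 11 TEC libraries (right), ordered by the mean (line), with 1 point per library. Per1 led in PMNs with a mean of 13.6 TPM and Nr1d1 in TECs with 32.3 TPM, and the points of the genes after the first overlapped.

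Detection was uneven. In PMN libraries 4 to 9 of the 10 members had more than 6 reads, the fewest in sham control replicate 2. In TEC libraries 7 to 10 of them did. The pooled within-group SD of log2(CPM + 1) was 0.51 for Per1 in PMNs and between 0.75 and 2.27 for the others, against a median of 1.10 over all tested genes. In TECs it was 1.06 to 2.10 for the 10 members, against 0.96 over all tested genes.

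The labelled cell types were checked against marker genes. The summed level of 10 neutrophil genes such as S100a8 and Csf3r was 6159 to 35360 CPM in PMNs and 1.71 to 32.4 CPM in sham and 34.6 to 109 CPM in IRI TECs, and that of 9 proximal tubule genes such as Slc34a1 and Lrp2 was 4480 to 9327 CPM in sham TECs. PMN libraries also held proximal tubule RNA, with sums of 293 to 2604 CPM after sham surgery and 172 to 250 CPM after IRI, and 7 to 9 of the 9 genes had more than 6 reads in each. Macrophage genes such as C1qa summed to 2765 to 8951 CPM in sham PMNs and to 830 to 1891 CPM in IRI PMNs, with 6 or 7 of 7 genes detected in each, and to at most 32.9 CPM in TECs. In TECs the proximal tubule sum was 655 to 4736 CPM after IRI, and the sum of 6 tubular injury genes such as Havcr1 was 14.4 to 357 CPM in sham and 1514 to 1982 CPM in IRI libraries. Distal tubule and collecting duct genes summed to 121 to 5207 CPM in sham PMNs and 45.3 to 599.6 CPM in IRI PMNs, and to 164 to 1182 and 93.7 to 608 CPM in sham and IRI TECs. Lymphocyte genes stayed at or below 121 CPM in PMNs and 33.7 CPM in TECs, and endothelial genes at or below 227 CPM and 252 CPM. The part of these other cells in the clock gene values of PMNs was not tested, and in a bulk library fewer cells of a type and less RNA per cell cannot be told apart.

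**Figure D2:**
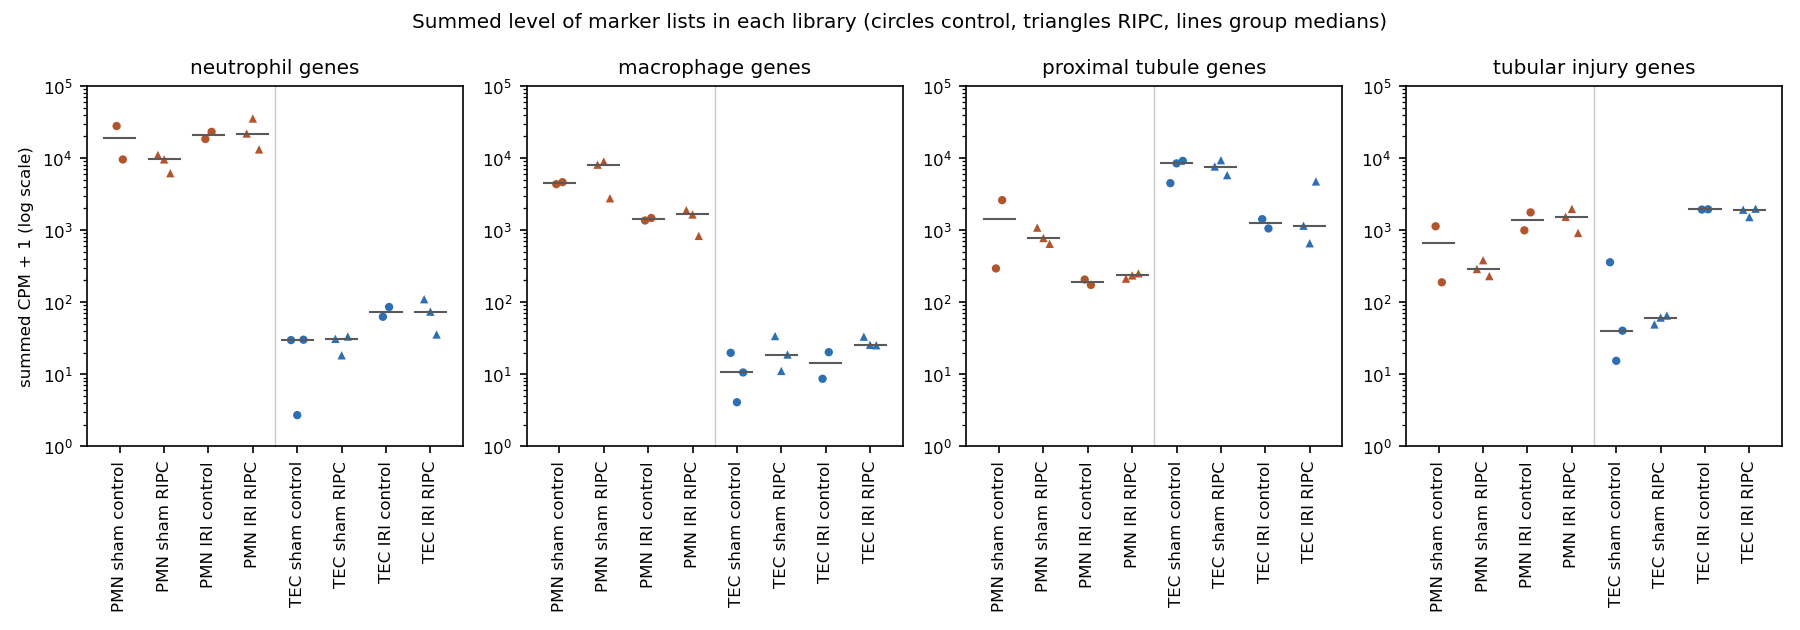
Summed CPM + 1 (vertical log axis) of 10 neutrophil, 7 macrophage, 9 proximal tubule and 6 tubular injury genes in each library (circles control, triangles RIPC, brown PMNs, blue TECs, lines group medians). Macrophage and proximal tubule genes were higher in sham than in IRI PMNs, and the 5 IRI TEC libraries stood at 1514 to 1982 CPM for the injury genes, above all 6 sham TEC libraries.

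The first comparison asked how the clock genes of TECs differed between injured and sham-operated kidneys. Of the 9 tested members, 1 was called at an adjusted p under 0.05, Cry1, where 1.40% of all 25917 tested genes were called (edgeR quasi-likelihood test with Benjamini-Hochberg adjustment over all tested genes). Cry1 passed the filter on low counts only through the IRI libraries, so it had to differ between the groups to be tested, and its call is given as a description. None of the others was called. Cry1, which encodes a cryptochrome that inhibits ARNTL and CLOCK, had 0 reads in all 6 sham TEC libraries. It had 577 and 34 reads in the IRI control libraries and 43, 46 and 429 in the IRI RIPC libraries. The groups did not overlap, and the IRI libraries themselves were far apart, since 2 stood at 23.0 and 19.8 CPM and the other 3 between 1.56 and 1.94 CPM. Against the 6 reads that a count of 0 allows in each library, the mean IRI level of 9.58 CPM was at least 42.8-fold higher than sham, and the lowest IRI library at least 5.87-fold higher. The adjusted p was 0.0368. It moved to between 0.0512 and 0.111 when IRI RIPC replicate 3 or any of the 6 sham libraries was left out, and to 0.336 and 0.309 within the control and the RIPC arms alone. Of the tested genes, 642 had 0 reads in every sham TEC library, and 6, Cry1 included, also had more than 6 reads in every IRI library. Sham and IRI values were fully separate for 1 of the 9 tested members, Cry1, and for 4.61% of all tested genes.

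The output genes stood lower after IRI in most TEC libraries without passing the test. Tef had 307, 3075 and 2172 reads in the sham control and 2331, 1353 and 3132 in the sham RIPC libraries. After IRI it had 619 and 372 reads in the control and 475, 77 and 126 in the RIPC libraries. Every sham library except sham control replicate 1 was above every IRI library. Its log2 fold change was -2.45 ± 0.67 (SE) with an adjusted p of 0.0993 by edgeR. It was called by DESeq2 (adjusted p = 0.00492), which called 2126 of 22384 genes. It was also called by edgeR without a filter on low counts (0.0212) and without sham control replicate 1 (0.0472). Dbp, the other output factor of the group, had 0, 709 and 423 reads in the sham control, 260, 266 and 707 in the sham RIPC, 0 and 215 in the IRI control and 36, 0 and 17 in the IRI RIPC libraries. Both arms held a library at 0, and the log2 fold change of Dbp was -2.91 ± 1.76 (adjusted p = 0.478).

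Of the activators, Arntl had 152 to 704 reads in the sham TEC libraries, with a median of 406, and 2, 317, 238, 87 and 909 in the IRI libraries. Its log2 fold change was -0.31 ± 1.03 (adjusted p = 0.986). Clock ranged from 80 to 1952 reads with a median of 686 in sham and from 82 to 822 with a median of 238 in IRI libraries (-1.01 ± 0.85, adjusted p = 0.640). For both, the IRI values spanned the sham median.

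The Period genes of TECs overlapped between sham and IRI. Per1 had 53 to 738 reads in sham libraries, with a median of 522, and 788, 392, 487, 396 and 1271 after IRI (0.71 ± 0.73 on the log2 scale, adjusted p = 0.718). Per2 had 44 to 918 reads, with a median of 299, and 36 to 536 with a median of 376 (0.19 ± 0.85, adjusted p = 1.00). Per3, the least needed of the repressors for the rhythm itself, had 0, 304 and 520 reads in the sham control and 378, 577 and 1010 in the sham RIPC libraries, against 348 and 551 in the IRI control and 11, 145 and 2 in the IRI RIPC libraries. The 3 IRI RIPC libraries were lower than all but 1 of the other 8, and the log2 fold change of RIPC against control after IRI was -3.08 ± 1.91 with an unadjusted p of 0.128 and an adjusted p of 0.778 (edgeR). Over surgery, Per3 differed by -1.24 ± 1.30 (adjusted p = 0.727). Nr1d2, the partner receptor of Nr1d1, had 422 to 2956 reads with a median of 750 in sham and 23 to 1315 with a median of 602 in IRI libraries (-0.94 ± 0.78, adjusted p = 0.639). Over the 9 tested members the median log2 fold change in TECs was -0.94, against 0.15 over all tested genes, and it is the same with Cry1 set to its bound.

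**Figure D3:**
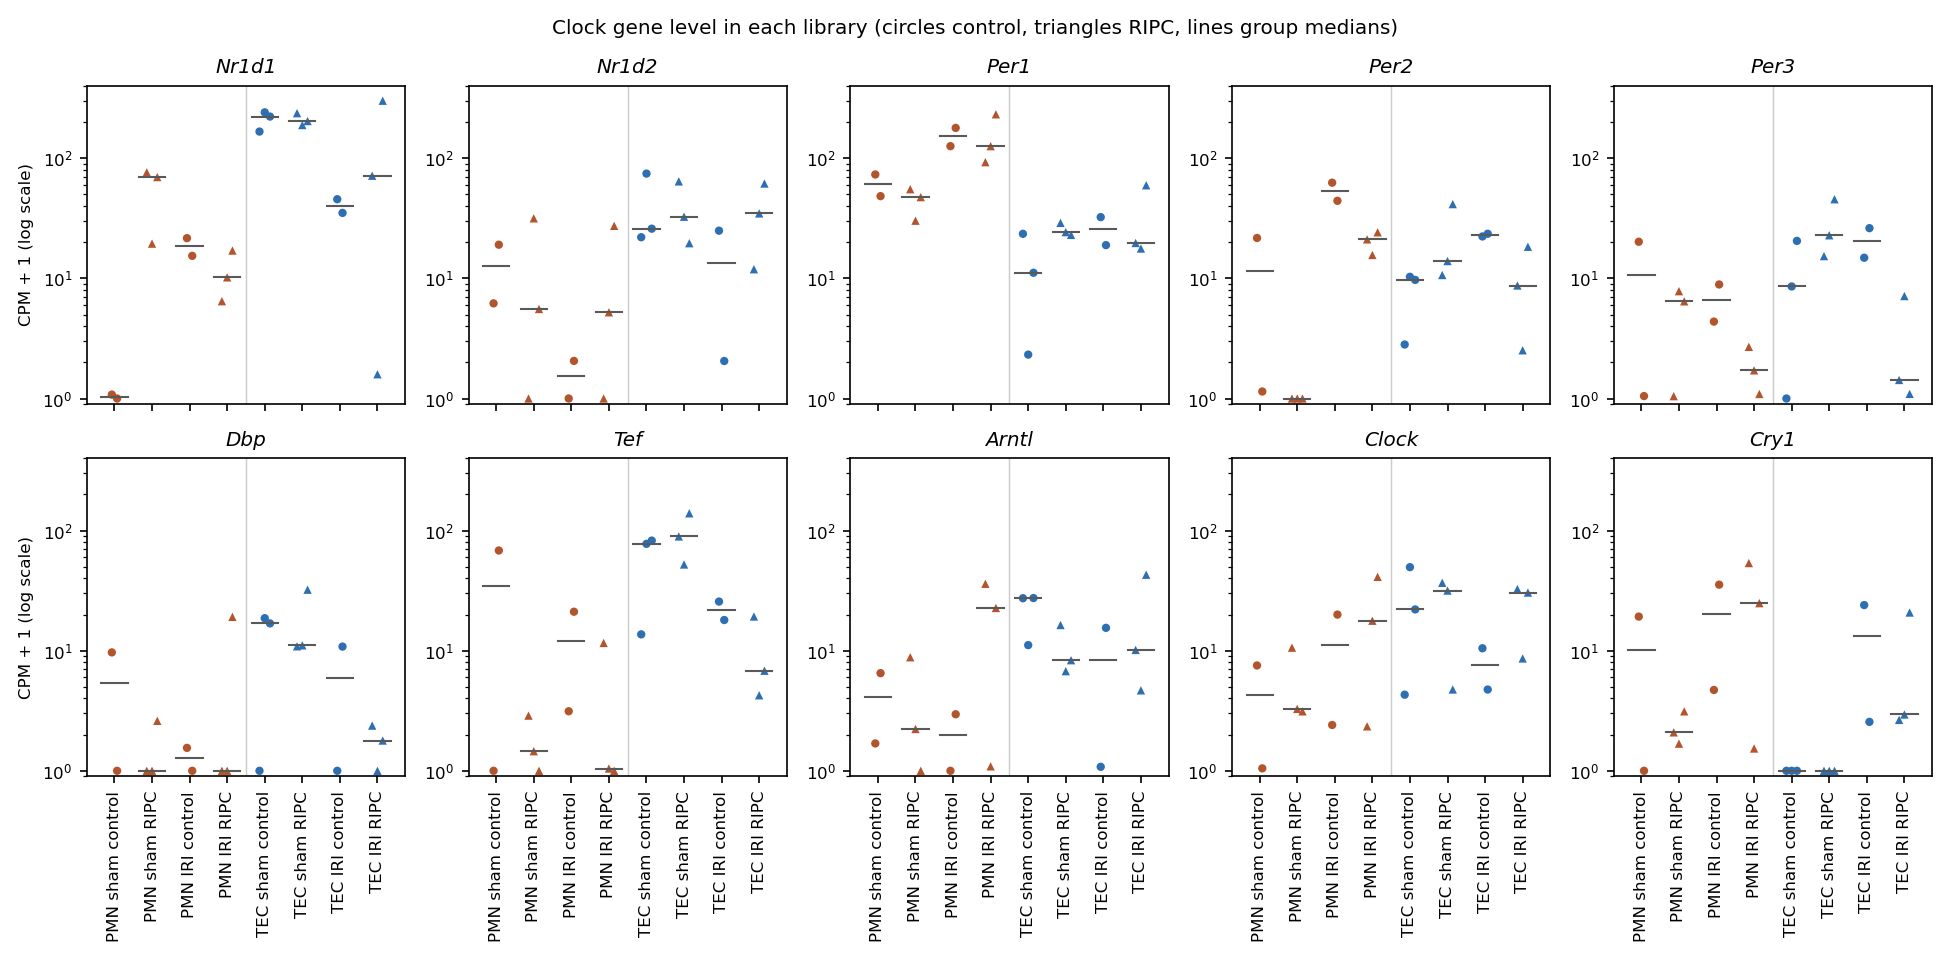
CPM + 1 (vertical log axis) of the 10 clock genes in each of the 21 libraries, by group (circles control, triangles RIPC, brown PMNs, blue TECs, lines group medians). Cry1 lay at 0 reads in all 6 sham TEC libraries and at 1.56 to 23.0 CPM in the 5 IRI TEC libraries, and Per1 in PMNs at 29.2 to 72.3 CPM after sham surgery and at 91.9 to 232 CPM after IRI.

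The same comparison in PMNs asked how the clock genes of neutrophils differed 24 hours after kidney injury. None of the 9 tested members was called by edgeR, where 0.416% of 25002 tested genes were called. Per1 and Per2 had an unadjusted p under 0.05, as did 2958 of all tested genes. DESeq2 called both, where it called 1824 of 20582 genes. Per1 had 1782 and 991 reads in the sham control and 1097, 642 and 897 in the sham RIPC libraries. After IRI it had 2936 and 4551 reads in the control and 2254, 2816 and 5652 in the RIPC libraries. The groups did not overlap, and the mean level was 150 ± 54.9 CPM (SD, n = 5) after IRI against 50.0 ± 15.6 CPM (n = 5) after sham surgery. Its log2 fold change was 1.55 ± 0.42 with an adjusted p of 0.217 by edgeR and 0.0114 by DESeq2. Of the 9 tested members, 1 had groups that did not overlap, as did 5.51% of all tested genes.

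Per2 had 510 and 3 reads in the sham control PMN libraries and 0 in all 3 sham RIPC libraries. It had 1446 and 1106 reads in the IRI control and 494, 330 and 566 in the IRI RIPC libraries. Sham control replicate 1 was the only sham library above the 6 reads that a count of 0 allows, and it lay within the IRI range. The mean level was 32.6 ± 19.5 CPM (SD, n = 5) after IRI against 4.17 ± 9.24 CPM (n = 5) after sham surgery, a log2 ratio of means of 2.97. The fitted log2 fold change, 7.04 ± 1.58, depends on the prior count because all 3 sham RIPC libraries were at 0, and it ranged from 6.61 to 10.1 with single libraries left out. The adjusted p was 0.174 by edgeR, 2.2e-05 by DESeq2, 0.00186 without a filter on low counts and 0.0382 without sham control replicate 1. Leaving out that replicate takes away the only sham library above 6 reads. Per2 passed the filter on low counts in PMNs only through the IRI libraries, so these values are given as a description. The difference of the IRI effect on Per2 between PMNs and TECs was not called by edgeR (unadjusted p = 0.000612, adjusted p = 0.182). In that test edgeR called 0 of the 9 members, where 0% of 31769 tested genes were called and 3102 had an unadjusted p under 0.05, and DESeq2 called 2230 genes, 2 of them members (Per2 and Cry1). Cry1 had an unadjusted p of 0.00299 and an adjusted p of 0.266 by edgeR.

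The other members of PMNs were read in some libraries and at or near 0 in others of the same group. Cry1 had 449 and 0 reads in the sham control, 22, 15 and 41 in the sham RIPC, 87 and 881 in the IRI control and 1292, 12 and 583 in the IRI RIPC libraries. The IRI libraries reached higher, and the log2 fold change was 2.68 ± 1.70 (adjusted p = 0.528). Clock had 1 to 194 reads after sham surgery and 33 to 981 after IRI (1.82 ± 1.45, adjusted p = 0.622). Arntl had 0 to 158 reads and 0 to 860 (0.48 ± 1.93, adjusted p = 1.00), and Nr1d2 had 0 to 673 and 0 to 644 (-2.35 ± 2.16, adjusted p = 0.686). Tef was high in 1 sham library alone, with 1407 reads in sham control replicate 2 against 0 to 38 in the other 4, and had 0 to 514 reads after IRI. That library also held the highest proximal tubule sum of the PMNs, 2604 CPM. Dbp had 214 reads in sham control replicate 1 and 442 in IRI RIPC replicate 3 and at most 31 in any other PMN library, and Per3 had 1 to 473 reads after sham surgery and 2 to 202 after IRI. Over the 9 tested members the median log2 fold change was 0.48, against -0.01 over all tested genes.

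RIPC was compared with control within each kind of surgery and cell type, which asked whether preconditioning left a mark on these genes a day later. No tested member was called by edgeR in any of these comparisons. In sham PMNs 0.00400% of all tested genes were called. By edgeR 1 of the 9 members had an unadjusted p under 0.05, as did 1150 of all 25002 tested genes. The member was Per2, whose RIPC libraries were all at 0 reads against 510 and 3 in the controls. Its unadjusted p was 0.00218 and its adjusted p 0.705 by edgeR. DESeq2 called this 1 member, where it called 770 of 20582 genes. In IRI PMNs 0% of all tested genes were called by edgeR, with 680 at an unadjusted p under 0.05 and 407 called by DESeq2, none of them members. In sham TECs 0% were called, with 1175 at an unadjusted p under 0.05 and 413 called by DESeq2. In IRI TECs 0.00386% were called, with 1128 at an unadjusted p under 0.05 and 669 called by DESeq2. None of the 9 members had an unadjusted p under 0.05 in IRI PMNs or in either TEC comparison. By edgeR, the difference of the RIPC effect between IRI and sham surgery was not called for any member, with 0% of all tested genes called in PMNs (1434 at an unadjusted p under 0.05, 632 called by DESeq2) and 0% in TECs (1869 and 578). Per2 in PMNs had the lowest unadjusted p of the members in that test, 0.0114 (adjusted p = 0.719), and DESeq2 called this 1 member in PMNs and 0 members in TECs.

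Nr1d1, which encodes REV-ERB alpha, is described without a test. In PMNs it had 2 and 0 reads in the sham control libraries and 1524, 406 and 1326 in the sham RIPC libraries. In the IRI control libraries it had 484 and 368 reads, and in the IRI RIPC libraries 134, 207 and 392. Both sham controls were at or under the reads that a count of 0 allows, and every other PMN library was above it. Against that floor the sham RIPC mean of 54.2 CPM was at least 204-fold higher than the sham control, and the lowest sham RIPC library at least 64.4-fold higher. After IRI the 2 arms overlapped, at 20.6 and 14.4 CPM in control and at 5.46, 9.20 and 16.1 CPM in RIPC libraries. The sham control libraries at 2 and 0 reads were otherwise unlike, since their neutrophil sums were 27840 and 9559 CPM and their proximal tubule sums 293 and 2604 CPM, against 6159 to 11030 and 644 to 1082 CPM in the sham RIPC libraries. Sham RIPC libraries also had macrophage sums of 2765 to 8951 CPM, against 4338 and 4621 CPM in the controls. The part of these cells in the Nr1d1 values was not tested.

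In TECs Nr1d1 had 4019, 9656 and 5899 reads in the sham control and 6238, 4970 and 4600 in the sham RIPC libraries. These 6 were close, at 166 to 240 CPM with a mean of 209 ± 29.1 (SD). After IRI it had 1121 and 746 reads in the control and 1837, 14 and 6517 in the RIPC libraries, and 4 of these 5 libraries were below the whole sham range at 0.592 to 70.6 CPM. The exception, IRI RIPC replicate 3, had the highest level of any library at 301 CPM. That library also had the highest proximal tubule sum of the injured TECs, 4736 CPM against 655 to 1418 CPM in the other 4, while its injury gene sum of 1982 CPM was not lower than theirs of 1514 to 1943 CPM. Whether the proximal tubule share moved Nr1d1 was not tested.

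A comparison of the cell types asked which clock genes differed between neutrophils and tubular cells. After sham surgery 2 of the 9 tested members were called, where 2.62% of 31769 tested genes were called, and they went in opposite directions. Cry1 was higher in PMNs, where it had 449, 0, 22, 15 and 41 reads, than in TECs, where all 6 libraries were at 0. Against the floor the mean PMN level of 4.43 CPM was at least 19.8-fold higher (adjusted p = 0.0166), but 1 library carried that mean. Without PMN sham control replicate 1 the mean of 0.974 CPM was at least 4.36-fold higher, and the lowest PMN library was at 0. The call was lost without PMN sham control replicate 1 (adjusted p = 1.00) and without TEC sham control replicate 2, TEC sham RIPC replicate 1 or TEC sham RIPC replicate 2 (0.0614, 0.0531 and 0.0549). Per2 was lower in PMNs, with 510, 3, 0, 0 and 0 reads against 44 to 918 in TECs, and its mean was 4.17 against 13.8 CPM (adjusted p = 0.0273). The fitted log2 fold change, -5.67 ± 1.35, depends on the prior count because of the libraries at 0, and was -8.79 without PMN sham control replicate 1, while the log2 ratio of the means over all libraries was -1.73. It lost the call without PMN sham control replicate 2 (0.0884), without TEC sham RIPC replicate 3 (0.0517) and with an offset for transcript length (0.120). Tef (-3.82 ± 1.69, adjusted p = 0.254), Clock (-2.60 ± 1.24, adjusted p = 0.281) and Per1 (1.62 ± 0.63, adjusted p = 0.200) had an unadjusted p under 0.05 only. Of all 31769 tested genes, 5572 had an unadjusted p under 0.05 by edgeR. Tef was called without PMN sham control replicate 2 (0.0329), and Tef and Per1 by DESeq2 (0.0453 and 0.0294), which called 4432 of 27002 genes. Per1 was nevertheless higher in every sham PMN library, at 29.2 to 72.3 CPM, than in every sham TEC library, at 1.32 to 28.0 CPM. It was the 1 of the 9 tested members without overlap, where 7.52% of all tested genes had none.

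After IRI 0 of the 9 members were called, where 2.67% of all tested genes were called. Per1 came closest with a log2 fold change of 2.44 ± 0.70 (adjusted p = 0.0729). Its 5 PMN libraries stood at 91.9 to 232 CPM and its 5 TEC libraries at 16.7 to 58.6 CPM, with no overlap, which was true of 6.89% of all tested genes. It was called by DESeq2 (0.000431), which called 3506 of 27002 genes, and by edgeR without TEC IRI RIPC replicate 3 (0.0479). Per2 (1.19 ± 1.06, adjusted p = 0.735) and Cry1 (1.18 ± 1.55, adjusted p = 0.946) were not called between the cell types after IRI. The fitted median over the 9 members was -2.21 after sham surgery and -0.54 after IRI, against 0 and -0.07 over all tested genes. The sham and IRI comparisons share no libraries, and PMN and TEC differences in these genes include whatever other cells each library held.

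**Figure D4:**
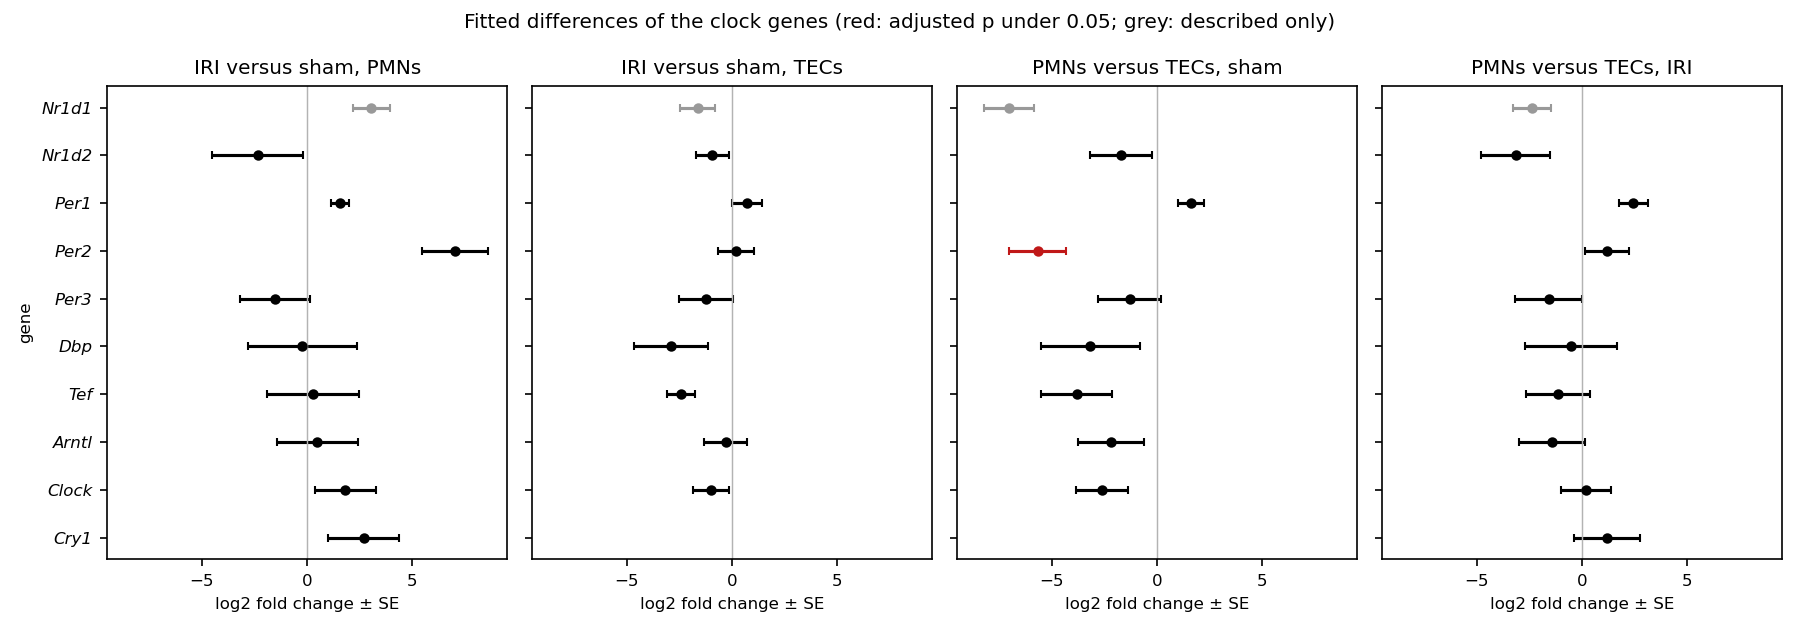
Log2 fold change ± SE (horizontal axis) of each clock gene from the edgeR fits for IRI against sham in PMNs and in TECs and for PMNs against TECs after each surgery. Red marks an adjusted p under 0.05 (Per2 in the sham comparison of cell types, -5.67), values of Per2 that involve sham PMNs depend on the prior count, grey marks Nr1d1, which is described only, and Cry1 is not drawn where all 6 sham TEC libraries were at 0.

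Of 26 further clock genes taken as a list, edgeR called 0 between IRI and sham in PMNs (2 at an unadjusted p under 0.05, 1 called by DESeq2) or in TECs (4 and 3), and 0 between RIPC and control in any arm (0 to 3 at an unadjusted p under 0.05, 0 to 1 called by DESeq2). Over all genes, edgeR gave an unadjusted p under 0.05 for IRI against sham to 2958 of 25002 in PMNs and 3893 of 25917 in TECs. For RIPC against control it did so for 680 to 1175 genes. DESeq2 called 1824 and 2126 genes for IRI against sham and 407 to 770 for RIPC. Between the cell types edgeR called 2 of the list lower and 0 higher in PMNs than in TECs after each surgery. Of all tested genes, 2.62% (sham) and 2.67% (IRI) were called in either direction. DESeq2 called 6 of the list each time, and 4432 (sham) and 3506 (IRI) of 27002 genes. Rora, an activating receptor that competes with REV-ERBs, was lower in PMNs after sham surgery (-3.74 ± 1.00, adjusted p = 0.0490) and after IRI (-3.99 ± 1.03, adjusted p = 0.0400). Its TEC libraries had 197 to 2633 reads and its PMN libraries 4 to 559. Prkaa2, the catalytic alpha 2 subunit of AMP kinase, was lower in sham PMNs (adjusted p = 0.0131), with 0 to 32 reads against 1718 to 3527 and means of 0.433 against 89.0 CPM, and DESeq2 gave it no p. Wee1, a mitotic kinase under clock control, was lower in IRI PMNs (adjusted p = 0.0438), with 0 to 27 reads against 51 to 639 and means of 0.230 against 16.9 CPM.

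Among the most abundant of this list, Bhlhe40 (DEC1), which competes for E-boxes, had 18 to 2173 reads in sham PMNs and 8922 to 12156 in IRI PMNs. These did not overlap, as was true of 5.51% of all tested genes, and the adjusted p of Bhlhe40 was 0.170 by edgeR (4.14 ± 1.02). In TECs it had 2347 to 4362 and 1388 to 4945 reads. Nfil3, a repressor at D-boxes, averaged 78.8 ± 86.9 CPM in sham and 422 ± 275 CPM in IRI PMNs (1.88 ± 1.49, adjusted p = 0.621). Csnk1d, a kinase that marks Period proteins for degradation, averaged 66.4 ± 44.9 CPM and Nampt, an enzyme of NAD synthesis, 58.3 ± 25.9 CPM over the 10 PMN libraries. In TECs Usp2, a deubiquitinase with rhythmic expression, had 1591 to 4384 reads after sham surgery and 8 to 960 after IRI. These did not overlap, as was true of 4.61% of all tested genes, and the log2 fold change of Usp2 was -2.80 ± 1.04 (adjusted p = 0.241). Prkaa2 averaged 66.0 ± 30.8 CPM and Gsk3b 56.5 ± 20.6 CPM over the 11 TEC libraries. The median log2 fold change of the 26 genes was 0.85 in PMNs and -0.17 in TECs for IRI against sham, beside -0.01 and 0.15 over all tested genes.

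Signals that reach the clock from outside were read from 2 further lists. Of 7 glucocorticoid-responsive genes 6 were tested, and 1 was called in 1 comparison, Dusp1, a phosphatase of MAP kinases. It was higher in PMNs than in TECs after IRI (2.97 ± 0.57, adjusted p = 0.00561) with 81061 to 126068 reads against 1349 to 28681. In that comparison 3 of the 6 had an unadjusted p under 0.05 by edgeR, as did 4590 of all 31769 tested genes. Dusp1 was 1 of these 3, and the others of the 3 were lower in PMNs. By adjusted p 2.67% of all tested genes were called. Of 5 genes tied to neutrophil ageing, Cxcl2, a neutrophil-attracting chemokine, was called for IRI against sham in PMNs, where 0.416% of all tested genes were called. It rose (2.99 ± 0.26, adjusted p = 0.00672) from 6401 to 17895 reads to 76544 to 141216 reads. It was also called in TECs (adjusted p = 0.0182), where 1.40% of all tested genes were called. There it had 0 to 3 reads in the sham and 84 to 927 reads in the IRI libraries, so no fold is given. In TECs it passed the filter on low counts only through the IRI libraries, as Cry1 did, so that call is given as a description. The neutrophil sum of TECs was likewise higher in every IRI than in every sham library, with a median of 72.9 against 28.9 CPM and 5 to 7 against 1 to 3 of the 10 genes above 6 reads. Of these genes, S100a8 had 18 to 562 reads in IRI and 0 to 53 in sham TECs, and Retnlg 0 to 493 and 0 to 1, and their part in the Cxcl2 result was not tested. Cxcr2, Itgam and Cxcl2 were higher in PMNs than in TECs after both surgeries, with adjusted p from 4.02e-08 to 0.00780. Of all tested genes, 2.62% (sham) and 2.67% (IRI) were called in these comparisons. Cxcr2 is also 1 of the 10 neutrophil genes used to check the labels. Comparing neutrophils with tubular cells cannot separate ageing from cell type, so nothing is concluded on ageing from these 2 comparisons. Cxcr4 was called in none of the comparisons.

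Reads could also be shared with neighbours. The exons of Nr1d1 (chromosome 11, 98767932 to 98775333, minus strand, GRCm38) overlap those of Thra on the other strand over 263 bases, 8.55% of its exon bases. The library was not stated to keep strand, so reads there cannot be told apart. Thra had 102 and 506 reads in the sham control and 0, 117 and 2 in the sham RIPC PMN libraries, and 189 to 578 reads in sham TECs. The part of shared reads in the Nr1d1 values was not tested. Dbp (chromosome 7, 45705088 to 45710203, plus strand) overlaps Sphk2 over 539 bases, 18.0% of its exon bases, and Sphk2 had 0 to 251 reads in sham PMNs, 386 to 1166 in IRI PMNs and 1 to 1636 in TECs. Tef (chromosome 15, 81802421 to 81826863, plus strand) overlaps Gm17597 over 193 bases. That antisense gene had 101 to 126 reads in 4 sham TEC libraries and 0 in all others. Arntl overlaps Gm45355 over 33 bases, and Gm45355 had 0 reads in all 21 libraries. Cry1 (chromosome 10, 85131700 to 85185064, minus strand) and Per2 (chromosome 1, 91415982 to 91459324, minus strand) overlap no exons of another gene.

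The transcripts to which the reads were assigned differed between members. Cry1, Per2 and Nr1d1 reads were nearly all assigned to 1 protein-coding transcript each, 99.1% to 100% of their reads in either cell type. Per3 had the lowest such share in both cell types, as 9.81% of its reads in PMNs and 47.2% in TECs were assigned to protein-coding transcripts, and 36.1% and 9.54% to transcripts with a retained intron. Clock had 22.6% and 23.1% of its reads on retained-intron transcripts in PMNs and TECs, Arntl 9.30% and 27.4%, and Nr1d2 43.4% and 4.15%, with 56.6% of its PMN reads on protein-coding transcripts. These shares pool all libraries of a cell type and follow the quantification's split of 50-base reads between overlapping transcripts.

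The genes whose log2(CPM + 1) was most like that of Nr1d1 were, over the 11 TEC libraries of 4 groups, Itch (Pearson r = 0.971), P4hb (0.968), Plekha7 (0.967), Nsd3 (0.967) and Mcrip2 (0.966), of 18882 genes ranked. Over the 10 PMN libraries the genes most like Nr1d1 by r were Ttc33 (0.923), Gm13370 (0.896), Fam118b (0.877), Khdrbs1 (0.869) and Rmdn3 (0.863), of 19539. Their rho ranged from 0.632 (Gm13370 and Fam118b) to 0.903 (Rmdn3). Among the members, Tef was most like Nr1d1 in TECs by Pearson's r (0.626, Spearman's rho = 0.464), but by rho Nr1d2 (0.609), Arntl (0.582), Clock (0.582) and Dbp (0.532) came before it. In PMNs Clock had the highest r (0.264, rho = 0.224). Arntl, the target of REV-ERB repression, had an r of 0.485 with Nr1d1 in TECs and -0.11 in PMNs. These values are descriptions over libraries that share their surgery groups and cell mixtures.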

How the data were processed

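RNA was reverse transcribed from polyA tails with template switching, amplified as full-length cDNA and sequenced as single 50-base reads. Per the labels and the study's methods, the authors trimmed reads with Trim Galore 0.6.4 and quantified transcripts with Salmon 1.0.0. The deposited files hold estimated counts (expected counts) and TPM per transcript, and the authors made 2 files per library. The build named in the processing notes is mm10. No value of another sample or of the authors' own comparisons was used.

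Estimated counts were added over a gene's transcripts and over both files and rounded. Of 140748 transcripts, 139864 matched Gencode vM21, and 0.139% to 0.255% of the reads of a library were left unmatched. Total counts of the 2 files differed by 0.167% to 0.492%, and per gene they differed by less than sampling noise (median chi-square 0.0119 to 0.0616 per library, where independent reads give 0.455), so they were counted as 1 library. TPM was averaged over the files. CPM were scaled by TMM over all 21 libraries.

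Tests used edgeR 4.0.16 (quasi-likelihood, TMM, filterByExpr, R 4.3.3), with sex-chromosome and mitochondrial genes left out (3717), 1 mean per group, separate fits for PMNs and TECs and a joint fit for comparisons of the cell types, and Benjamini-Hochberg adjustment over all genes tested at 0.05. All 10 members passed the filter in each fit. Alternatives were DESeq2 1.42.0, its size factors, no filter, a replicate block, an offset for transcript length, each file alone, each library left out and each arm alone. The fits were tested on simulated data. Summed levels of lists use CPM.

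The members and lists were chosen with earlier results of these data known. The genes named are the 10 members, further clock, glucocorticoid-responsive and ageing genes that were called, the 4 most abundant further clock genes per cell type, genes overlapping a member, and the 5 most like Nr1d1 per cell type at a mean of at least 1 CPM. Of the ageing list, 1 gene is not reported here. Cxcr4, Thra and Sphk2 readings and sites in promoters are descriptive.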

Additional observations from a re-analysis of the deposited data

How the results depend on the processing

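Of the 9 tested members, edgeR called 0 for IRI against sham in PMNs, but DESeq2 called 2. DESeq2 gave Dbp and Tef no adjusted p there. A fit with no filter on low counts called 1, and leaving out single libraries gave 0 to 1. In TECs the call of 1 became 2 under DESeq2 and without the filter, 0 in the control groups only and 0 in the RIPC groups only, and 0 to 1 with single libraries left out. For RIPC against control in sham PMNs, 0 became 1 under DESeq2 and without the filter, and the difference of the RIPC effect between surgeries in PMNs went from 0 to 1 under DESeq2. Over all genes, the calls for RIPC in sham PMNs went from 1 to 770 under DESeq2 and to 139 without the filter. Between the cell types after sham surgery, 2 became 4 under DESeq2, 3 without the filter, 1 with the length offset and 1 to 2 with single libraries left out, and after IRI 0 became 1 under DESeq2 and 0 to 1 with libraries left out. For the IRI effect in PMNs minus that in TECs, 0 became 2 under DESeq2 and 2 without the filter, and 0 to 1 with single libraries left out, the 1 being without PMN sham control replicate 1. Over all genes, the 0 calls for that effect became 2230 under DESeq2 and 722 without the filter. Counts under DESeq2's size factors and either file alone were the same as reported. DESeq2 called more genes than edgeR in every comparison. For IRI against sham DESeq2 called 1824 of 20582 genes in PMNs, against 104 of 25002. In TECs it called 2126 of 22384, against 363 of 25917. Between the cell types it called 4432 of 27002 after sham surgery, against 832 of 31769, and 3506 against 847 after IRI. Without the filter these counts were, in that order, 971 of 38823, 1289 of 39528, 2222 of 43623 and 1763 of 43623. The cause of these changes was not tested.

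Replicate numbers are shared between groups, but same-numbered libraries did not deviate together (correlations of -0.0234 to 0.0304 in PMNs and -0.106 to 0.139 in TECs). With the replicate block 0 members were called in PMNs and 1 in TECs for IRI against sham, and 2 and 0 between the cell types after sham and IRI, so it changed no count of members, while over all genes it moved the calls from 104 to 23 in PMNs and from 363 to 404 in TECs.

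Directions that turned belonged to members that were not called. In log2 units for IRI against sham in PMNs, Dbp was 0.14 in file 1 alone and 3.49 in the RIPC groups only, Tef -1.61 and Arntl -1.67 in the control groups only, and with single libraries left out Dbp ranged from -5.26 to 4.61, Tef from -3.25 to 6.63, Arntl from -3.21 to 1.62 and Per3 from -2.06 to 2.22. In TECs Per2 was -1.28 and Arntl 0.91 in the RIPC groups only and Per3 1.07 in the control groups only, and leaving out libraries gave -0.28 to 0.64 for Per2 and -3.55 to 0.18 for Arntl. Between the cell types after IRI, Per2 was -0.64 and Clock -0.12 with the length offset, and leaving out libraries gave -5.64 to 4.41 for Dbp, -5.19 to 1.78 for Arntl, -1.25 to 0.70 for Clock and -0.011 to 2.67 for Cry1. DESeq2's size factors moved the median over all genes for IRI against sham in TECs from 0.15 to 0.28. Groups of 2 or 3 libraries and low reads limit the precision of these values.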
